A study of Mus musculus with 64 samples.

Results

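Interferon-stimulated genes are the genes that cells switch on after interferon, the antiviral cytokine, binds its receptor. The set described here held 9 of them: Ifit1, Ifit3, Irf7, Isg15, Bst2, Oasl2, Ifi27, Usp18 and Rtp4. They were taken by name, as the rows of the deposited table whose Ensembl identifier carries one of these symbols in the GENCODE vM21 annotation, and all 9 were found among the 18432 genes of the table. Bulk RNA-seq had been run on frontal cortex and hippocampus, dissected from both hemispheres, of mice heterozygous for the Cyfip2 +/R87C knock-in (KI) and of their wild-type littermates (WT). All mice were C57BL/6N and carried no transgene or Cre driver, and the mutation is a germline change present in every cell. Tissue was taken at 4 ages given as postnatal week (PWK), namely PWK 1, 7, 14 and 28. With 2 genotypes and 2 regions this gave 16 groups of 4 libraries, 64 libraries in all. Both regions came from the same mice at each age, 4 per genotype, but the labels do not say whether an equal replicate number in cortex and hippocampus marks 1 mouse. Mice of both sexes were used in the study and the labels give no sex for a library.

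Type I interferon binds a receptor made of IFNAR1 and IFNAR2, whose kinases JAK1 and TYK2 phosphorylate latent transcription factors, STAT2 among them. With IRF9 these form a complex that binds the interferon-stimulated response element in target promoters. In the brain, microglia, astrocytes, endothelial cells and neurons can all respond, and a low tonic level of signalling is known in healthy tissue. The 9 genes cover the main arms of the response. Ifit1 and Ifit3 encode proteins that bind foreign RNA and block its translation or pass the alarm on to the mitochondrial antiviral pathway. Isg15 encodes a ubiquitin-like protein that is attached to other proteins, and Usp18 the protease that removes it and also dampens the receptor. Oasl2 belongs to the oligoadenylate synthetase family of RNA sensors. Bst2 encodes tetherin, which holds budding virus on the cell surface. Irf7 is the transcription factor that amplifies interferon production. Rtp4 encodes a chaperone of G-protein-coupled receptors, and Ifi27 a small mitochondrial or membrane protein of less settled function.

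All 9 genes are protein-coding on GRCm38. Ifit3 (chr19:34583531-34588731) and Ifit1 (chr19:34640871-34650009) lie close together on the plus strand of chromosome 19, and the other 7 lie on separate chromosomes. These are Irf7 (chr7:141262706-141266481, minus strand), Isg15 (chr4:156199424-156200818, minus), Bst2 (chr8:71534255-71537456, minus), Oasl2 (chr5:114896936-114912234, plus), Ifi27 (chr12:103434211-103440239, plus), Usp18 (chr6:121245906-121270917, plus) and Rtp4 (chr16:23520291-23614222, plus). The estimated counts split reads between near copies, and 61.8% of the 31-base words of Ifit3 transcripts also occur in Ifit3b, so Ifit3 is the uncertain member. The shared portion was 12.8% for Isg15, 12.5% for Rtp4 (all with the overlapping gene Gm45338), 10.5% for Ifit1, 1.23% for Oasl2 and 0 for Irf7, Bst2, Ifi27 and Usp18. Irf7 overlaps Phrf1 by 45 exon bases on the opposite strand, Usp18 overlaps Gm44148 by 124 on the opposite strand, and Rtp4 overlaps Gm45338 by 296 on the same strand.

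The response element was looked for in RefSeq promoters (GRCm38.p6) as the letters GAAA, any 2 bases and GAAA again (TTTC, any 2 bases and TTTC on the other strand), within the 250 bases before each start site. Promoters of 6 members matched in the RefSeq table, and those of Ifi27, Usp18 and Rtp4 are named only. Ifit1, Ifit3, Isg15 and Bst2 held the letters and Irf7 and Oasl2 did not, against 2.98% of all 32851 promoters. Among the 60 promoters matched to the other interferon-stimulated genes listed for comparison, 22 held the letters (36.7%). These 60 promoters belong to 47 genes, of which 20 held the letters (42.6%), and the remaining listed genes had no promoter matched. The 4 stretches are shown because they hold the letters searched for. Each is written 5′ to 3′ on the strand of its gene, with the matched letters in capitals. Ifit1 is chr19:34640765-34640833 (plus), Ifit3 chr19:34583353-34583436 (plus), Isg15 chr4:156200855-156200916 (minus) and Bst2 chr8:71537567-71537622 (minus).
Ifit1: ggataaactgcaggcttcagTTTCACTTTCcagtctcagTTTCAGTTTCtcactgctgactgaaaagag
Ifit3: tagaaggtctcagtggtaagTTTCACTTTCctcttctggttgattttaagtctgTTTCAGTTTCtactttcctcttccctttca
Isg15: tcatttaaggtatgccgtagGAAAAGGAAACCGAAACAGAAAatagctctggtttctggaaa
Bst2: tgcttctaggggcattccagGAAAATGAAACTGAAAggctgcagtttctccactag
Ifit1 and Ifit3 each held 2 separate matches with the TTTC end first, at 104 and 85 bases before the start for Ifit1 and at 156 and 122 for Ifit3. In Isg15 3 matches overlapped one another from base 78, and in Bst2 2 overlapped from base 130, all with the GAAA end first. A match is a run of letters and no measure of binding, and Irf7, which lacks it in this window, is a known target of the same factor.

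The table holds normalized estimated counts, with library totals of 29225576 to 32601227 (median 31051098), and the highest correlation between 2 libraries was 0.989. Region labels held, since 7 or 8 of 8 hippocampal markers were higher in WT hippocampus than in WT cortex at each age and 6 or 7 of 8 cortical markers lower. Cyfip2 itself, the edited gene, was measured at 25727 ± 3577 in KI cortex at PWK 28 against 34727 ± 608 in WT (SD, n = 4 each), the only group in which it passed the test (adjusted p = 0.00580), and its level does not check a genotype label. For the genes described here, 1 KI library stood apart in each of 3 groups: replicate 1 of hippocampus at PWK 14, of hippocampus at PWK 28 and of cortex at PWK 28. In these 3 groups each call of a member is therefore given with and without that library. It was picked for its high values of these same members. Leaving it out lowers their KI means by construction and tends to shrink the spread within KI. Values and calls without it are therefore descriptions and no independent test. Differences are in log2 of (count + 1), from limma with the Benjamini-Hochberg adjustment over all genes tested, and a gene is said to be called where its adjusted p is under 0.05. Where KI and WT libraries are said not to overlap, the share of all genes without overlap was not counted, so this is description only.

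In WT mice the level per kilobase of exon set Ifi27 far above the rest in both regions. In cortex Ifi27 stood at 84.3 ± 8.11 per kb (SD, n = 4) at PWK 1 and 324 ± 38.5 at PWK 28, and in hippocampus at 146 ± 17.5 and 595 ± 60.5. From PWK 7 on Ifit3 and Bst2 came next, at 116 to 129 and 46.5 to 64.1 per kb in cortex and at 88.1 to 126 and 67.7 to 117 in hippocampus. At PWK 1 Bst2 had ranked above Ifit3, with 45.9 ± 4.55 against 20.02 ± 5.05 per kb in cortex. Rtp4, Isg15, Ifit1 and Oasl2 followed in an order that changed between ages, and in most groups neighbours among them differed by less than the sum of their SDs. Ifit3 and Bst2 also differed by less than the sum of their SDs in hippocampus from PWK 7 on. Irf7, the amplifier, ranked 7th at PWK 1 and 8th later, at 5.01 to 12.3 per kb, and Usp18 was lowest throughout at 3.53 to 8.00 per kb. Usp18 was listed at 0 in 1 of 64 libraries, KI replicate 2 of cortex at PWK 1, and the other 8 members were above 0 in all 64.

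**Figure D1:**
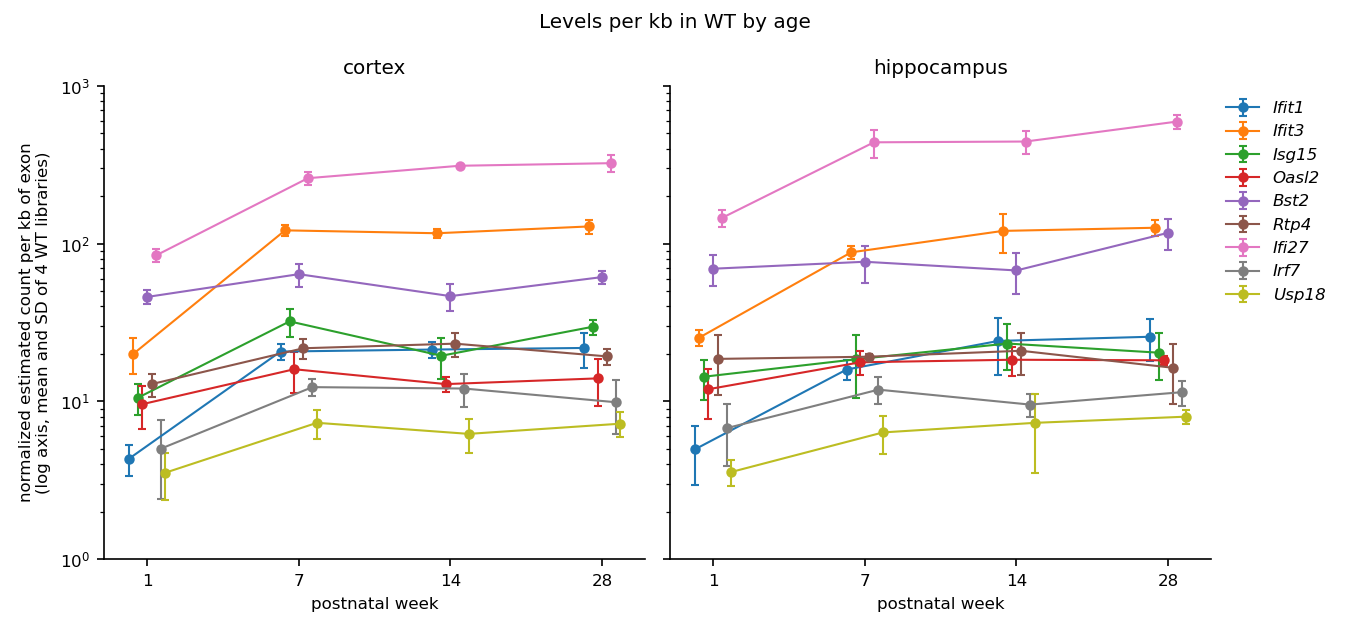
WT levels of the 9 genes in cortex and hippocampus, as normalized estimated count per kilobase of exon (log axis) at PWK 1, 7, 14 and 28 (drawn at equal spacing), points and bars being mean ± SD of 4 libraries. Ifi27 runs from 84.3 to 324 per kb in cortex and from 146 to 595 in hippocampus, and most lines climb between PWK 1 and 7.

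The main change in WT mice fell between PWK 1 and PWK 7. In cortex all 9 genes were called higher at PWK 7, where 65.3% of all genes tested were called and 32.5% were called higher, and the median of the 9 differences was 1.40 against 0.01 over all genes. Ifit3 rose the most, from 26.2 to 46.4 per library at PWK 1 to 199.5 to 238 at PWK 7, a difference of 2.60 ± 0.18 (SE, adjusted p = 1.03e-07). Ifit1 rose by 2.18 ± 0.23 (adjusted p = 4.06e-06), from 8.51 to 14.4 to a range of 47.7 to 63.1, with no overlap between the ages. Ifi27 rose by 1.62, Isg15 by 1.50, Irf7 by 1.40 and Usp18 by 1.01, and Rtp4, Oasl2 and Bst2 by 0.74, 0.72 and 0.46. The calls of Bst2 and Oasl2 were the weakest. Bst2 lost its call without WT replicate 1, 2 or 4 of PWK 1 or replicate 1, 2 or 4 of PWK 7, and Oasl2 without the same libraries other than PWK 1 replicate 1.

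In hippocampus 5 of 9 were called higher at PWK 7, beside 61.3% of all genes called and 30.9% called higher, with a median difference of 0.76 over the 9. Ifit3 rose by 1.77 ± 0.14 (adjusted p = 7.21e-07), Ifit1 by 1.69 ± 0.30 (adjusted p = 5.23e-04) and Ifi27 by 1.57 ± 0.15 (adjusted p = 3.01e-06). These 3 kept their call without any single library. Irf7 (0.88, adjusted p = 0.0322) and Usp18 (0.76, adjusted p = 0.0320) were both lost without replicate 4 of PWK 1 or replicate 1 of PWK 7. Irf7 was also lost without replicate 2 of PWK 1 or replicate 2 or 4 of PWK 7, and Usp18 without replicate 1 of PWK 1. Oasl2 (0.62, adjusted p = 0.0527), Isg15 (0.29), Rtp4 (0.15) and Bst2 (0.13) did not pass the test. Bst2 was already at 41.5 to 72.3 in hippocampus at PWK 1, close to its 41.8 to 80.0 at PWK 7. Microglial markers rose over the same interval, with 12 of 12 called higher in cortex and 11 of 12 in hippocampus. Of 9 astrocyte markers 7 were called higher and 1 lower in cortex, and 4 higher and 3 lower in hippocampus. Of 9 endothelial markers 4 were higher and 3 lower in cortex, and 4 higher and 4 lower in hippocampus, and of 7 oligodendrocyte markers 6 were higher and 1 lower in both regions. The microglial summed level went from 7456 to 9170 to a range of 14883 to 16081 in cortex. In bulk tissue a change in the number of cells of a type and a change in RNA per cell cannot be told apart, and the part of cell numbers in the rise of the 9 genes was not tested.

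After PWK 7 few WT differences were called. From PWK 7 to 14 none of the 9 was called in cortex (5.32% of all genes called, 3 members with an unadjusted p under 0.05) or in hippocampus (1.99%, 1 member). From PWK 14 to 28 none was called in cortex (12.0%, 2 members with an unadjusted p under 0.05) and 1 in hippocampus (8.11%). That gene was Ifi27, which rose by 0.43 ± 0.11 (adjusted p = 0.0419), from 525 to 786 to a range of 781 to 971, with PWK 14 and 28 overlapping in 1 library. Its call was lost without WT replicate 1, 2 or 4 of PWK 14 or replicate 1, 3 or 4 of PWK 28. Bst2 gave the largest difference in that comparison, 0.79 ± 0.22, and narrowly missed the test (adjusted p = 0.0523). Its hippocampal mean went from 61.1 ± 17.8 to 106 ± 24.0 (SD). In cortex Isg15 fell by 0.71 from PWK 7 to 14 and rose by 0.62 from PWK 14 to 28 (adjusted p = 0.169 and 0.156).

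Ifi27 was the member that set the regions apart in WT mice. Hippocampal libraries were above all cortical ones at each age, with differences of 0.78 ± 0.12, 0.73 ± 0.14, 0.50 ± 0.10 and 0.88 ± 0.10 from the youngest to the oldest. All 4 were called (adjusted p = 3.83e-04, 0.00114, 0.00270 and 1.93e-05) and all 4 calls were kept without any single library. It was the only member called at PWK 1, where 34.7% of all genes were called. At PWK 7 (40.8% of all genes) Ifit3 was lower in hippocampus by 0.46 ± 0.11 (adjusted p = 0.00450), with 141 to 170 against 199.5 to 238 in cortex. At PWK 14 (34.6%) Oasl2 was higher by 0.49 ± 0.17 (adjusted p = 0.0391), a call lost without replicate 1, 3 or 4 of cortex or 3 or 4 of hippocampus. At PWK 28 (37.8%) Bst2 was higher by 0.90 ± 0.18 (adjusted p = 0.00207), at 76.8 to 126 against 50.1 to 61.4 in cortex. The share of members called, 1 or 2 of 9, was not above the share of all genes at any age. These fits take the regions as separate mice.

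In young KI mice no member was called. At PWK 1 the 9 differences between KI and WT ran from -1.18 (Usp18, through the KI library listed at 0) to 0.47 in cortex and from -0.23 to 0.46 in hippocampus, with no member under an unadjusted p of 0.05 and 0.00546% and 0.0109% of all genes called. In cortex at PWK 7 they ran from -0.38 to 0.26 (0.00545% of all genes called), and only Ifi27, with an unadjusted p of 0.0439, fell under 0.05. Hippocampus at PWK 7 differed in that all 9 differences were positive, with a median of 0.32, although none was called (0.0218% of all genes). Ifit1 read 106, 61.0, 48.2 and 75.0 in the 4 KI libraries and 46.1, 34.3, 47.7 and 41.0 in the 4 WT libraries, a difference of 0.71 ± 0.23 (adjusted p = 0.660). For Ifit3 the values were 234, 171, 206 and 210.1 in KI and 141, 143, 162 and 170.0 in WT (0.41 ± 0.12, adjusted p = 0.625). In both genes the lowest KI library was just above the highest WT library. Isg15 gave the largest difference, 0.85 ± 0.35, at a lower level and with overlapping groups, from 15.98 to 38.5 in KI and from 7.74 to 22.2 in WT (adjusted p = 0.758).

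Cortex at PWK 14 showed little more. None of the 9 was called where 5.18% of all genes were, and the median difference was 0.07. Ifit3 came closest at 0.35 ± 0.10 (adjusted p = 0.0697, and 0.132 without KI replicate 1). Its KI libraries read 284, 263, 238 and 252 and its WT libraries 209.6, 196, 189 and 219, without overlap. Ifi27 was at 389 to 435 in KI and at 449 to 467 in WT, lower in KI and also without overlap (-0.15 ± 0.07, adjusted p = 0.260). Replicate 1 of KI cortex at PWK 14 was the highest of the 8 libraries for 4 members, beside 22.3% of all genes, and at most 1.22 times the highest of the other 7.

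In cortex at PWK 28 Irf7 and Bst2 were called higher in KI mice, 2 of 9 members beside 22.2% of all genes called and 12.2% called higher. Irf7 read 236, 120, 115 and 78.6 in KI replicates 1 to 4 and 37.1, 57.1, 27.3 and 27.7 in WT, so that every KI library was above every WT library. The difference was 1.80 ± 0.34, or 3.48-fold (adjusted p = 0.00454), and 1.50 without KI replicate 1 (adjusted p = 0.00750). Bst2, the tetherin gene, read 196, 86.3, 97.7 and 94.8 in KI and 50.1, 61.4, 51.9 and 58.5 in WT, again without overlap. It was higher by 1.00 ± 0.25, or 2.01-fold (adjusted p = 0.0170), and by 0.74 without KI replicate 1 (adjusted p = 0.0172). The other 7 were not called, and their adjusted p ran from 0.119 for Rtp4 to 0.995 for Isg15. Rtp4 also did not overlap, at 48.5 to 125 in KI and 38.0 to 48.3 in WT. In those 7 KI replicate 1 was the highest of the 8 libraries. Ifit3 read 751 in KI replicate 1 and 196, 277 and 307 in the others, against 211 to 257 in WT, and Isg15 read 80.3 against 13.9 to 15.6 in the other KI libraries and 19.6 to 25.6 in WT. Isg15, Usp18 and Ifi27 were thus below the WT median in all 3 remaining KI libraries, and without KI replicate 1 the median of the 9 differences went from 0.54 to 0.05.

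Hippocampus at PWK 14 held the highest of all 64 values for Ifit1, Irf7, Isg15 and Rtp4, all in KI replicate 1. Isg15 read 157 in KI replicate 1, 6.88 times the highest of the other 7 libraries, and 8.06, 7.47 and 17.7 in KI replicates 2 to 4, against 10.01, 20.9, 16.6 and 22.8 in WT. Oasl2 was at 758 in that library and at 86.9 to 147 in the other 7, a ratio of 5.16, and Irf7 at 379 and 27.4 to 86.1, a ratio of 4.41. Ifit1 was at 385 and 46.0 to 99.6, Ifit3 at 1009 and 164 to 287, Usp18 at 143 and 12.1 to 35.9, and Rtp4 at 184 and 32.2 to 63.5. Ifi27 was the least raised, at 1027 against 525 to 786. With this library all 9 differences were positive with a median of 0.63, and without it 4 of 9 were positive with a median of -0.01, Isg15 being the lowest at -0.66, Ifit1 at -0.29 and Usp18 at -0.13.

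Bst2 was the 1 member called there, beside 15.6% of all genes called and 7.64% called higher. It read 303, 80.4, 144 and 125 in KI and 48.4, 58.1, 87.1 and 50.9 in WT, and KI replicate 2 was below WT replicate 3. The difference was 1.27 ± 0.37, or 2.41-fold (adjusted p = 0.0455), and 0.92 without KI replicate 1 (adjusted p = 0.0410). The call was lost without KI replicate 3 or 4 or WT replicate 1, 2 or 4, with adjusted p between 0.0643 and 0.121. Irf7 read 379, 41.2, 86.1 and 84.1 in KI and 36.4, 27.4, 40.3 and 40.03 in WT, every KI library above every WT library. Its difference of 1.51 ± 0.56 was not called (adjusted p = 0.0959), nor was the 0.89 left without KI replicate 1 (adjusted p = 0.0638).

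In hippocampus at PWK 28 all 9 differences were positive, with a median of 1.01 against 0.00374 over all genes. Without KI replicate 1 the median was 0.58 and 8 of 9 were positive, Ifi27 being at -0.06. With all 8 libraries Irf7 and Bst2 were called higher, beside 15.8% of all genes called and 8.92% called higher. Irf7 read 332, 97.2, 92.1 and 57.2 in KI and 32.9, 41.7, 46.5 and 51.6 in WT, a difference of 1.40 ± 0.43 or 2.64-fold (adjusted p = 0.0459), and of 0.89 without KI replicate 1 (adjusted p = 0.0372). Bst2 read 400.3, 160.0, 163 and 172 in KI and 95.7, 76.8, 125 and 126 in WT (0.98 ± 0.28, 1.97-fold, adjusted p = 0.0375), and the difference without KI replicate 1 was 0.66 (adjusted p = 0.0416). In both genes KI and WT did not overlap. Both calls were lost without any 1 of the 4 WT libraries, with adjusted p from 0.0513 to 0.119, and that of Irf7 also without KI replicate 2 or 3 (adjusted p = 0.0642 and 0.0645). Ifit3 read 1312, 314, 379 and 327 in KI and 236, 182, 230 and 233 in WT, once more without overlap. With all 8 libraries its difference of 1.11 ± 0.37 missed the test (adjusted p = 0.0659). Without KI replicate 1, picked for its high values, the smaller difference of 0.63 ± 0.12 was called (adjusted p = 0.00921). The other 6 were not called with or without KI replicate 1. Rtp4 (1.06, adjusted p = 0.0889) and Isg15 (1.18, adjusted p = 0.145) came next, and Ifi27 was the least different at 0.10. Usp18 (0.90, adjusted p = 0.248) also did not overlap, at 25.4 to 157 in KI and 19.1 to 23.8 in WT.

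**Figure D2:**
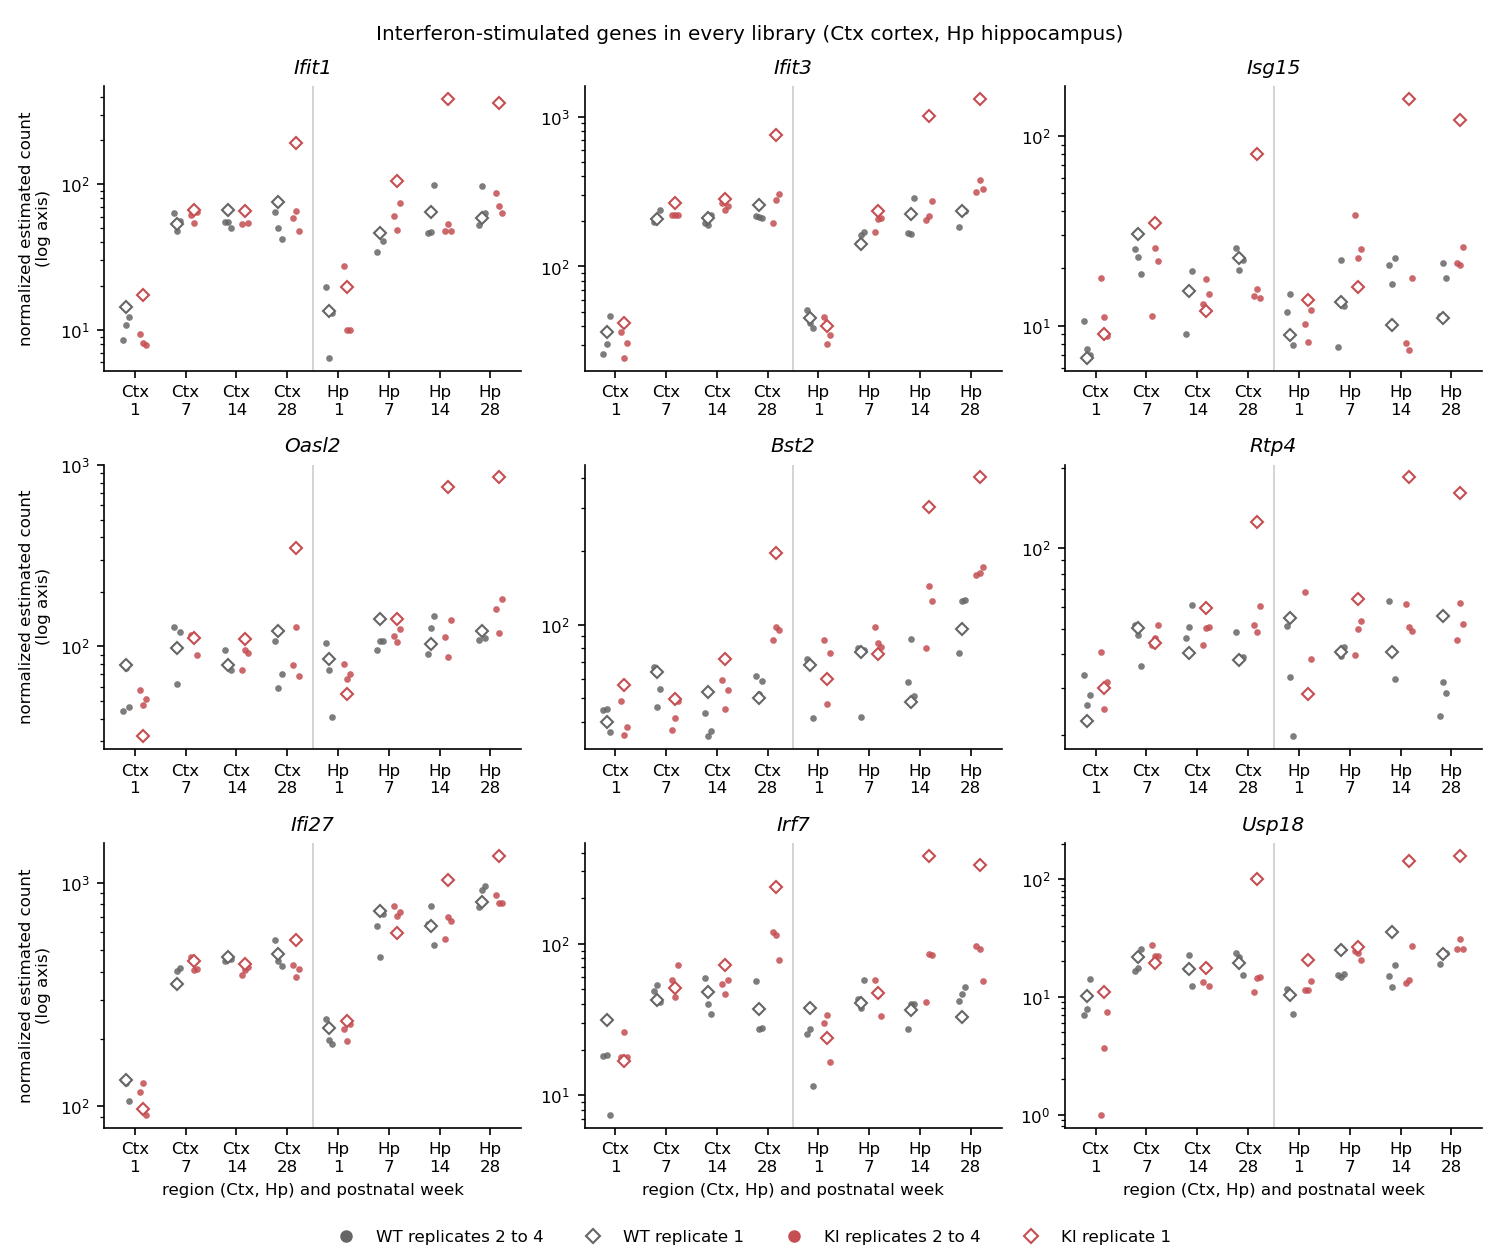
Normalized estimated count of each of the 9 genes (log axis) in all 64 libraries by region (Ctx cortex, Hp hippocampus) and postnatal week, WT in grey and KI in red, with replicate 1 as an open diamond and replicates 2 to 4 as dots, and the Usp18 value of 0 drawn at 1. KI replicate 1 tops all 9 panels at PWK 14 in hippocampus and at PWK 28 in both regions.

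The height of KI replicate 1 was shared by the whole set in 3 groups. That library was the highest of the 8 for 9 of 9 members in hippocampus at PWK 14, in hippocampus at PWK 28 and in cortex at PWK 28, where it was the highest for 24.0%, 17.5% and 20.003% of all genes. At PWK 28 it was 5.07 times the next library for Usp18, 4.69 times for Isg15 and 4.67 times for Oasl2 in hippocampus, and in cortex it was 4.25 times for Usp18, 3.14 times for Isg15 and 2.74 times for Oasl2. Irf7 and Bst2 were raised less than those 3 genes, at 1.97 and 2.01 times in cortex and 3.41 and 2.33 times in hippocampus at PWK 28. Rtp4 was at 2.06 times in cortex and 2.57 in hippocampus, Ifit3 at 2.45 and 3.46, and Ifit1 at 2.57 and 3.68. The next library was a KI library for Irf7 and Bst2, as for Ifit3, Oasl2 and Rtp4, in both regions. Ifi27 was 1.00 times the next library in cortex and 1.36 times in hippocampus. Whether the 2 libraries numbered 1 at PWK 28 came from the same mouse is not stated, so the 3 libraries are not known to be 3 separate mice.

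**Figure D3:**
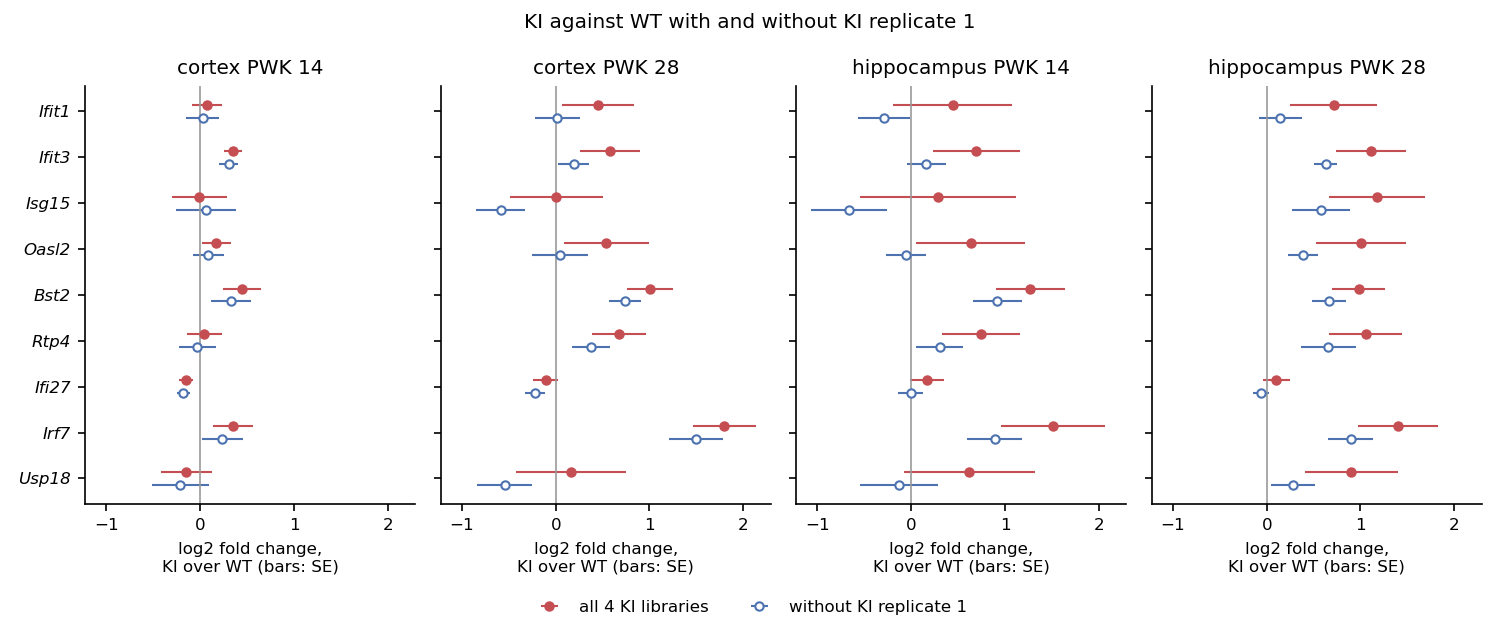
Difference between KI and WT (log2 of count + 1) of the 9 genes in cortex and hippocampus at PWK 14 and 28, with all 8 libraries (filled red) and without KI replicate 1 (open blue), bars being the standard error. Without that library Irf7 in cortex at PWK 28 goes from 1.80 to 1.50 and Ifit3 in hippocampus at PWK 28 from 1.11 to 0.63.

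None of the 9 KI effects was shown to differ between the regions or between the older ages. The limma test of the difference in KI effect between hippocampus and cortex called 0 of 9 at PWK 1 (0% of all genes), PWK 7 (0.00543%), PWK 14 (2.85%) and PWK 28 (4.57%). For Irf7 at PWK 14, where hippocampus gave 1.51 and cortex 0.35, the difference of 1.17 ± 0.63 had an adjusted p of 0.352. At an unadjusted p under 0.05 there was 1 member at PWK 1, 1 at PWK 7 and 0 at PWK 14 and PWK 28. Between PWK 14 and PWK 28 the test called 0 of 9 in cortex and 0 of 9 in hippocampus, where 0% of all genes were called in both, with 1 member under an unadjusted p of 0.05 in cortex and 0 in hippocampus. The largest value was that of Irf7 in cortex, 1.45 ± 0.42, with an adjusted p of 0.139. The tests between regions took the 2 regions as separate mice, although both came from the same mice. The counts of 0 held in all 6 tests when the libraries numbered 1 were left out of the KI groups.

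The receptor and its kinases were measured beside their targets. No interferon gene of the lists was called, since Ifnb1, Ifna4, Ifnk and Ifng are not in the table. Of the 6 ligand and receptor genes that are, Ifnar2, the signalling chain of the type I receptor, was higher in KI hippocampus at PWK 14 (0.57 ± 0.13, adjusted p = 0.0158). It read 786, 531, 552 and 569 in KI and 388 to 433 in WT, and the 0.44 without KI replicate 1 was also called (adjusted p = 0.00592). Ifnar1, the other chain, was not called in any of the 8 groups. Ifnlr1, a receptor chain for the lambda interferons, was higher in hippocampus at PWK 14 (1.70, adjusted p = 0.0443) and cortex at PWK 28 (1.54, adjusted p = 0.0279), at values between 9.88 and 75.4 in KI. Neither was called without KI replicate 1 (adjusted p = 0.0554 and 0.0744).

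Among 11 signalling genes the kinase gene Jak1 was called higher in KI hippocampus at PWK 14 (0.35, adjusted p = 0.0183) and PWK 28 (0.20, adjusted p = 0.0187) and in KI cortex at PWK 28 (0.32, adjusted p = 0.00444). Each of these was called without KI replicate 1 as well. Jak2 was lower in cortex at PWK 14 (-0.25, adjusted p = 0.0363, and 0.0565 without KI replicate 1) and PWK 28 (-0.37, adjusted p = 0.00168, and 0.00432 without it). Stat2, a carrier of the signal that is itself an interferon target, was not called in any group. Irf9, which encodes its partner, was lower in cortex at PWK 28 (-0.38, adjusted p = 0.0421, and 0.0438 without KI replicate 1). Socs3, a feedback inhibitor of cytokine receptors, went opposite ways, higher in hippocampus at PWK 14 (2.76 ± 0.57, adjusted p = 0.0126) and PWK 28 (0.82 ± 0.20, adjusted p = 0.0172) and lower in cortex at PWK 28 (-1.29 ± 0.35, adjusted p = 0.0242). Without KI replicate 1 Socs3 was called at both ages in hippocampus (adjusted p = 0.00429 and 0.0424) and not in cortex (0.0575). Ptpn6, a phosphatase gene, was higher in hippocampus at PWK 28 (0.59 ± 0.17, adjusted p = 0.0355, and 0.0677 without KI replicate 1).

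Of 20 genes that sense nucleic acids, 4 were called higher and 2 lower in hippocampus at PWK 28, 1 higher and 1 lower in hippocampus at PWK 14, and 1 lower in cortex at PWK 28, beside 15.8%, 15.6% and 22.2% of all genes called in the same order. Tlr7, an endosomal receptor for single-stranded RNA, was higher in hippocampus at PWK 28 (1.01 ± 0.14, adjusted p = 9.36e-04) and PWK 14 (0.96 ± 0.28, adjusted p = 0.0464), at 207 to 300.0 in KI against 105 to 136 in WT at PWK 28. Unc93b1, which carries such receptors to the endosome, was higher at PWK 28 (0.38, adjusted p = 0.0103), as were Tlr3 (0.36) and the kinase gene Tbk1 (0.23). Without KI replicate 1 Tlr7 was called at both ages (adjusted p = 0.00271 and 0.0481) and Unc93b1 at PWK 28 (0.0292), while Tlr3 and Tbk1 were not (0.0951 and 0.0636). Adar, the gene of an enzyme that edits double-stranded RNA, was lower at PWK 28 (-0.18 ± 0.05, adjusted p = 0.0268, and 0.0657 without KI replicate 1), at 4429 to 4978 in KI and 5133 to 5501 in WT. Irf3, the constitutive partner of Irf7, was lower in KI in the same 3 groups, the differences being -0.32 in hippocampus at PWK 14, -0.36 in hippocampus at PWK 28 and -0.52 in cortex at PWK 28. Without KI replicate 1 Irf3 was called in hippocampus at PWK 14 only (adjusted p = 0.0371, then 0.0749 and 0.0717).

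The 60 other interferon-stimulated genes repeated the library pattern with few calls. KI replicate 1 was the highest library for 57 of 60 in hippocampus at PWK 14, 56 of 60 in hippocampus at PWK 28 and 43 of 60 in cortex at PWK 28, but for 12 of 60 in cortex at PWK 14. At PWK 14 in hippocampus 2 of 60 were called higher and 0 lower, with 55 positive and a median difference of 0.54, which became 3, 1, 43 and 0.17 without KI replicate 1. At PWK 28 there 3 were higher and 1 lower, with a median of 0.45, then 5 and 1 with 0.19. Cortex at PWK 28 had 2 higher and 2 lower, with a median of 0.12, then 2 and 1 with -0.07. The share of all genes called without that library was 17.4%, 11.9% and 17.1% in the same order. In cortex at PWK 14 none was called with or without it.

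Cxcl10, the gene of a chemokine that attracts T cells, was the most changed of these. It read 247, 17.6, 13.5 and 23.5 in KI hippocampus at PWK 14 and 1.88 to 10.98 in WT (3.04 ± 0.88, adjusted p = 0.0443, and 2.11 without KI replicate 1, adjusted p = 0.0271). At PWK 28 it read 282, 36.1, 23.6 and 27.1 in KI and 5.23 to 11.9 in WT (2.67 ± 0.66, adjusted p = 0.0197, and 1.85 without KI replicate 1, adjusted p = 0.00697). So Cxcl10 was above every WT library in all 4 KI libraries at both ages, as well as far higher in replicate 1. Cortex at PWK 28 overlapped with WT, with 120 in replicate 1 beside 0, 5.70 and 20.9 in the other KI libraries and 2.89 to 9.61 in WT. In that group the called genes were Helz2, a helicase gene (1.09 ± 0.24, adjusted p = 0.00954), and Ifitm3, which blocks virus entry (0.76 ± 0.20, adjusted p = 0.0222), both higher, and Ube2l6, the conjugating enzyme of ISG15 (-0.51), and Ly6e (-0.18), both lower. Helz2 and Ifitm3 were also called without KI replicate 1 (adjusted p = 0.0229 and 0.0459), and Ube2l6 and Ly6e were not (0.0698 and 0.0914). Herc6, the ligase that attaches ISG15 in the mouse, was higher in hippocampus at PWK 14 (1.04 ± 0.19, adjusted p = 0.00650), at 312 to 526 in KI and 156 to 222 in WT, and was called without KI replicate 1 (0.88, adjusted p = 0.00354). Lgals3bp (0.94) and Irgm1 (0.64) were higher and Ifi203 (-1.22) lower in hippocampus at PWK 28, and without KI replicate 1 all 3 were called (0.64, 0.40 and -1.30, adjusted p = 0.0407, 0.0266 and 0.00526). Oas1g, Oas3, Ifi205, Phf11b, Cxcl9 and Ccl5 are not in the table.

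**Figure D4:**
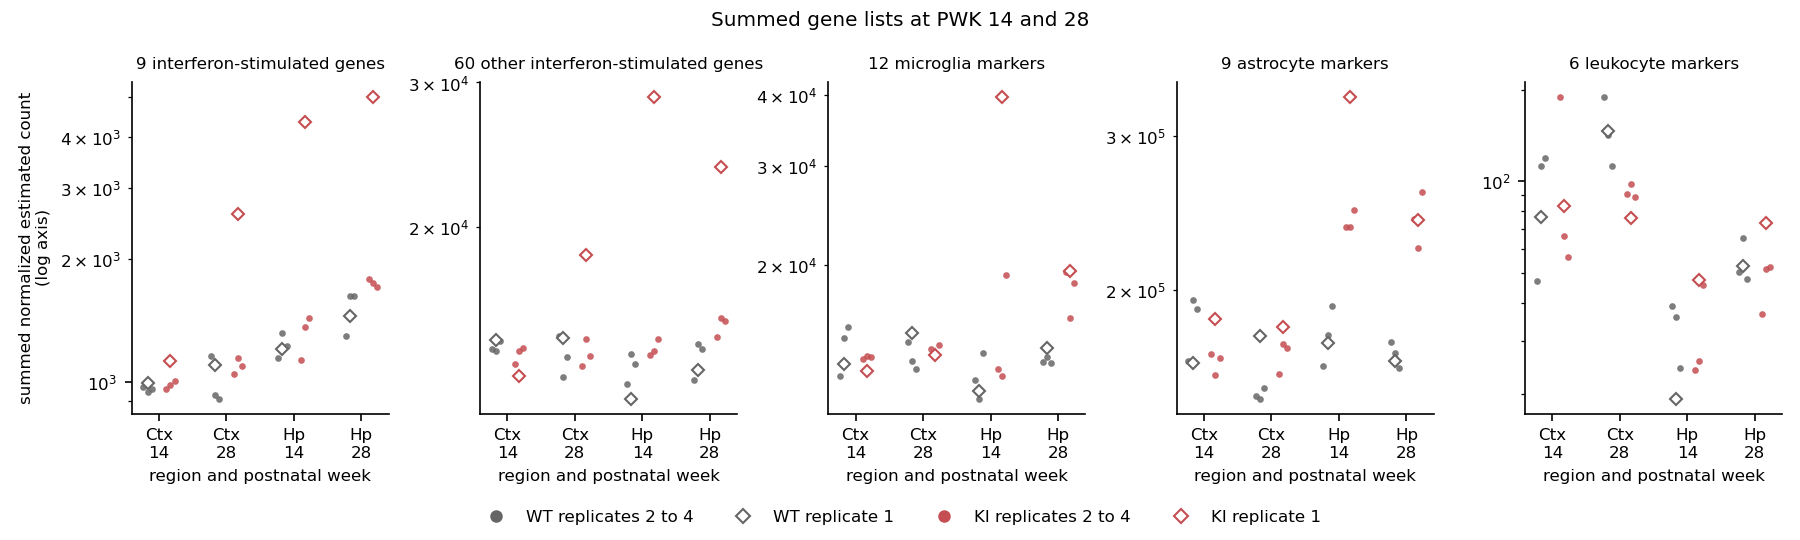
Summed normalized estimated counts (log axis) of the 9 genes, 60 other interferon-stimulated genes, and 12 microglia, 9 astrocyte and 6 leukocyte markers in each library of cortex (Ctx) and hippocampus (Hp) at PWK 14 and 28, WT in grey and KI in red, replicate 1 as open diamonds. KI replicate 1 stands out in both interferon panels in 3 groups. In the microglia panel it is the highest of the 8 libraries in hippocampus at both ages. At PWK 14 it reaches 39796 beside at most 19265 in the other KI libraries, and at PWK 28 only 19522 beside 19428.

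Markers of other cells were measured in the same 3 libraries. At PWK 14 in hippocampus the summed level of 12 microglia markers was 39796 in that library, 12759 to 19265 in the other KI libraries and 11610 to 13966 in WT, and 11 of 12 markers were above all other 7 libraries. The sum of 9 astrocyte markers was 332963, against 236018 to 246464 and 163616 to 191410, with Gfap at 131431 against 40059 to 47169 and 7502 to 9231. The sum of 9 endothelial markers was 9425 against 6702 to 7289 in the other 7, with 8 of 9 markers above those libraries. At PWK 28 in hippocampus KI replicate 1 had a microglia sum of 19522, the highest of the 8 libraries. The other KI libraries summed to 16151 to 19428 and WT to 13437 to 14290. In KI replicate 1 there, 6 of 12 markers were above all other 7 libraries, and the astrocyte sum lay within the KI range. The microglia sum in KI replicate 1 of cortex at PWK 28, 13885, lay within the 13129 to 15159 of WT, with 3 of 12 markers above the other 7 libraries. The endothelial sum was the highest of the 8 libraries in KI replicate 1 at PWK 28 too. It was 7022 beside 5095 to 6430 in cortex and 6845 beside 4813 to 6763 in hippocampus. Only 4 of 9 markers in cortex and 3 of 9 in hippocampus were above the other 7. The sum of 6 pericyte and mural markers was likewise the highest in KI replicate 1 of all 3 groups. It was 9598 beside 4645 to 5511 in hippocampus at PWK 14, with 4 of 6 markers above the other 7 libraries. At PWK 28 it was 6486 beside 3641 to 5423 in cortex and 5428 beside 4048 to 4810 in hippocampus. In both groups 3 of 6 markers were above the other 7. The part of these cell types in the height of KI replicate 1 was not tested.

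Between genotypes glial markers were called in several groups. In hippocampus at PWK 28, 8 of 12 microglia markers were called higher with and without KI replicate 1. Of 9 astrocyte markers 5 were higher with it and 4 without, beside 15.8% and 11.9% of all genes called. At PWK 14 in hippocampus none of the 12 microglia markers was called (3 had an unadjusted p under 0.05, and 2 were called without KI replicate 1). Of 9 astrocyte markers 2 were called higher with it and 4 without, beside 15.6% and 17.4% of all genes called. In cortex at PWK 14 none of 12 microglia markers was called. Of 9 astrocyte markers 2 were higher and 1 lower there, beside 5.18% of all genes called. In cortex at PWK 28, 1 of 12 microglia markers was called higher, and of 9 astrocyte markers 2 were higher and 2 lower. Of all genes 22.2% were called there. Leukocyte markers stayed low, with 6 markers summing to 19.4 to 190 over both regions from PWK 1 to 28 and none called at PWK 14 or 28. Their sum in KI replicate 1 of cortex at PWK 28, 75.9, was the lowest of the 8 libraries there. In hippocampus it was the highest in KI replicate 1 at PWK 14, at 47.4 beside 19.4 to 45.8, and at PWK 28, at 73.2 beside 36.8 to 65.1. Cd3e, Cd3g, Cd8a, Nkg7 and Plac8 are not in the table. How far glial cell number and RNA per cell enter the differences of Irf7, Bst2 and Ifit3 in hippocampus was not tested.

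Genes were also ranked by how closely they followed the set over the 64 libraries. Each of 17063 genes was correlated with the mean log2 level of the 9 members, after each group mean was subtracted. The value was highest for B2m (0.89), the light chain of MHC class I. Next came Lgals9, Rnf213, Parp14, H2-D1, Trim25, Irgm1, Ifitm3, Parp9 and Slfn8 (0.83). Of these 10 genes, 7 were in the pathway lists, which hold 6, 11, 20 and 60 genes beside the members. Over the 61 libraries left without the 3 that stood apart, the correlations of these 10 genes were 0.16 to 0.65. Between members the 36 pairwise correlations went from 0.43 to 0.87 (median 0.65) over 64 libraries to -0.24 to 0.58 (median 0.13) over 61. These are descriptions over libraries that share region, age and genotype, and they carry no test. The 3 libraries were picked for their high values of these same members. They therefore weigh on the ranking, and a fall in the correlations without them was built in.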

How the data were processed

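RNA from frontal cortex and hippocampus was sequenced as stranded libraries. The deposited table holds signal values, which are estimated gene counts that the authors made with Salmon and tximport and divided by DESeq2 normalization factors. The submitters' processing notes name Salmon 0.11.2, R 3.6.0, DESeq2 1.19.11 and GRCm38. Because the values are normalized, no count model was run on them and counting intervals cannot be given. Gene names were matched from the identifiers for 18420 of 18432 rows (12 unmatched).

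Values were tested as log2(value + 1) with limma 3.58.1 (trend, R 4.3.3; Python 3.11.15, pandas 2.3.3 and numpy 2.4.6 for tables), over genes averaging 1 or more in the fitted libraries, with Benjamini-Hochberg adjustment over all genes and a threshold of 0.05. On this scale the change of weakly expressed genes is understated. KI and WT were compared within each age and region, the KI effect between regions and between PWK 14 and 28 by interaction terms, and WT mice between neighbouring ages and between regions. The labels do not give preparation dates, so age and preparation cannot be told apart in the age comparisons. Groups came from the sample labels, and p-values measure the spread between the 4 libraries of a group. The fit was run on simulated data with known changes for KI against WT at PWK 28, with independent noise in each library. That setting held no library raised in many genes at once, so it does not cover the case of KI replicate 1.

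All 9 members are named in every comparison, and of the pathway lists up to 3 called genes per direction and comparison plus Stat2, Irf9, Ifnar1 and Ifnar2 (1 further signalling gene is not reported here), with Cyfip2 and the 10 genes most like the set. Ifnlr1, Ptpn6, Tlr3, Tbk1, Cxcl10, Lgals3bp, Irgm1, Ube2l6 and Ly6e were named after their values were seen, as were Jak1 and Tlr7 where they fell outside these ranks. The members and all lists were chosen with earlier results of these data known. Shared sequence between genes was counted in 31-base words of GENCODE vM21 transcripts. Alternatives were pseudocounts of 0.5 and 5, a filter at a mean CPM of 1 over the summed values, no filter, total-sum scaling, 1 fit of all 64 libraries, sample quality weights, a replicate block and each library left out in turn. Fits without KI replicate 1 and Ifit3 summed with Ifit3b were added after the data were seen.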

Additional observations from a re-analysis of the deposited data

Results flagged for a closer look

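In groups of 4 libraries the gap between an end library and its nearest neighbour, divided by the range, was compared with Dixon's critical value for 4 values. Of 144 combinations of gene and group 33 passed, where chance gives about 1 in 20. Of these, 21 were KI replicate 1 at the top of 3 groups. In hippocampus at PWK 28 they were all 9 genes, with normalized counts of 360.0 for Ifit1, 1312 for Ifit3, 332 for Irf7, 122 for Isg15, 400.3 for Bst2, 855 for Oasl2, 1318 for Ifi27, 157 for Usp18 and 161 for Rtp4. In hippocampus at PWK 14 they were 385 for Ifit1, 1009 for Ifit3, 379 for Irf7, 157 for Isg15, 758 for Oasl2, 143 for Usp18 and 184 for Rtp4. In cortex at PWK 28 they were 193 for Ifit1, 80.3 for Isg15, 196 for Bst2, 101 for Usp18 and 125 for Rtp4.

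The other 12 were spread over groups and genotypes. High values in cortex were Ifit1 in KI replicate 1 at PWK 1 (17.4), Irf7 in KI replicate 3 at PWK 1 (26.3), Ifit3 in KI replicate 1 at PWK 7 (263), and Ifit3 in WT replicate 1 (257) and Rtp4 in WT replicate 2 (48.3) at PWK 28. In hippocampus Usp18 was high in WT replicate 1 at PWK 7 (24.9). Low values in cortex were Ifi27 in WT replicate 4 at PWK 1 (106) and Oasl2 in KI replicate 4 at PWK 7 (89.9). Low values in hippocampus were Bst2 in WT replicate 4 at PWK 1 (41.5) and WT replicate 3 at PWK 7 (41.8), and Ifit3 (182) and Usp18 (19.1) in WT replicate 2 at PWK 28. No difference in KI effect between regions or ages passed its test.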

How the results depend on the processing

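Of 72 KI effects of the 9 genes, none of the 1207 alternative values reversed a call, 48 changed sign while called under neither setting, and 17 alternatives gave no value. Of 85 alternatives to the 5 called effects, 21 lost the call, none of them for Irf7 or Bst2 in cortex at PWK 28, and 9 calls were gained. Of 24 counts of members called, 16 stayed within 1.5 times under every alternative. For KI against WT in hippocampus at PWK 14 the count of 1 became 0 with total-sum scaling, 2 in 1 fit of all 64 libraries, 0 with the replicate block and 0 to 2 with a library left out. In hippocampus at PWK 28 the count of 2 became 0 without a filter, 1 with total-sum scaling, 4 in the fit of all libraries, 3 with the replicate block and 0 to 3 with a library left out. The block lost Irf7 there (adjusted p = 0.0682, limma) and gained Ifit3 (0.0383) and Rtp4 (0.0141), and left the 6 counts of 0 for differences in KI effect at 0. The difference in KI effect between PWK 28 and 14 in cortex went from 0 to 1 (Irf7) with sample quality weights. In WT mice, PWK 7 against 1 in hippocampus went from 5 to 3 with the CPM filter and in the fit of all libraries, and to 3 to 5 with a library left out. In cortex the count of 9 became 6 in the fit of all libraries and 7 to 9 with a library left out. PWK 28 against 14 in hippocampus went from 1 to 2 with the CPM filter, total-sum scaling or weights, to 0 without a filter, in the fit of all libraries or with the replicate block, and to 0 to 2 with a library left out. Hippocampus against cortex went at PWK 1 from 1 to 2 with a pseudocount of 5, total-sum scaling, weights or the replicate block and to 1 to 3 with a library left out (3 without WT replicate 4 of hippocampus), at PWK 7 from 2 to 1 in the fit of all libraries and to 2 to 3 with a library left out, at PWK 14 from 2 to 1 in the fit of all libraries, with weights or with the replicate block and to 1 to 2 with a library left out, and at PWK 28 the 2 calls became 2 to 3 with a library left out. The cause was not tested. Equal numbers share only a number in the labels. Cortex and hippocampus of the same number correlated above 0.1 in 17 of 32 pairs (mean r 0.14, and -0.05 for different numbers). KI and WT did in 10 of 32 (0.03, and -0.01). At PWK 28 the cortex and hippocampus pairs of KI replicates 1 to 4 gave 0.40, 0.24, 0.24 and 0.44, and those of WT -0.07 to 0.05. Summing Ifit3 with its near copy Ifit3b changed no call. The values are normalized and give no counting error, so 4 libraries a group set the precision.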
